A study of Homo sapiens with 6 samples.

Results

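The genes described here encode the machinery that copies DNA and repairs it, followed in 3 bladder cancer cell lines treated with quisinostat, an inhibitor of histone deacetylases. They were chosen by name from a list of 57 genes, and 55 of them have a row among the 10515 rows of the deposited table. BRCA1 and FANCA were not analysed here. Of the 55, 54 had values above 0 in all 6 libraries, and POLD1 was listed at 0 in 1 of them. The table covers 10066 assembled loci, 9112 of which were above 0 in all 6 libraries and serve as the background below.

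RNA-seq was performed on RT4, RT112 and SW780 cells after 2 days with quisinostat or with DMSO, its solvent. RT4 and RT112 cells carry an FGFR3-TACC3 fusion and SW780 cells carry the fusion given in the labels as FGFR3-BAIBP2L1. The quisinostat dose was 50 nM for RT4, 10 nM for RT112 and 25 nM for SW780, and an effect of dose and one of cell line cannot be told apart. Each cell line and treatment has 1 library, 6 in all, and a difference within a line has no replicate check. Values are FPKM, which divide a gene's fragments by the length of its transcript and by the library's mapped fragments, so that levels can be compared between genes. In such bulk RNA, fewer cells in S phase and less RNA per cell cannot be told apart.

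Replication origins are prepared in G1 when the origin recognition complex, CDC6 and CDT1 load the MCM2-7 helicase onto DNA. CDC45 and the GINS complex then join the helicase to form the moving replication fork, where polymerases, the PCNA clamp and its loader RFC copy both strands. Many of these genes are transcribed at the G1/S boundary by E2F factors, which are held back by the RB family. Several repair genes are under the same control, and homologous recombination and the Fanconi anaemia pathway act largely on damage met during replication.

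The members' promoters carried the E2F letters often. Promoter windows from 250 bases before to 50 bases after the start site were taken from RefSeq on GRCh38.p14, and 48 of the 55 members matched. The octamers TTTCGCGC and TTTGGCGC were searched on both strands, and 13 of the 48 members held at least 1 of them. That is 27.1%, against 1.40% of the 27305 genes with a window. CCAAT, the letters bound by NF-Y, was in 62.5% of the members and 39.7% of all genes. GGGCGG, bound by SP1, was in 79.2% and 48.3%, and the mitotic CHR element (TTTGAA or TTCGAA) was in 8.33% and 19.5%. Of the 13, 5 are printed 5′ to 3′ on the strand of the gene and end at the base before the start site. They were chosen to show the arrangements of the octamer in genes of the helicase, a polymerase, the fork protection complex and E2F1 itself. Capitals mark the E2F octamers and CCAAT on either strand, and all 5 genes lie on the minus strand, at chr2:135876444-135876605 (MCM6), chr7:100101398-100101507 (MCM7), chr12:132687343-132687452 (POLE), chr15:66356686-66356795 (TIPIN) and chr20:33686386-33686495 (E2F1).
MCM6: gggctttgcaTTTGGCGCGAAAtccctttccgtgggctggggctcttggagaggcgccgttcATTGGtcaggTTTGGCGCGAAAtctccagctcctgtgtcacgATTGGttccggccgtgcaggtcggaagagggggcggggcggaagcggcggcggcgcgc
MCM7: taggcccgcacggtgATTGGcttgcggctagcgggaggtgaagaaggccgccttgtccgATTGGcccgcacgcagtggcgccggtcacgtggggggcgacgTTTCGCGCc
POLE: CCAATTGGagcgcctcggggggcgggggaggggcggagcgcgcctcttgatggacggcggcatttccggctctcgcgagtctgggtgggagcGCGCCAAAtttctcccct
TIPIN: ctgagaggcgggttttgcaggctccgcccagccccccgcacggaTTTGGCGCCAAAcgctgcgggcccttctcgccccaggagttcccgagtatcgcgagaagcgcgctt
E2F1: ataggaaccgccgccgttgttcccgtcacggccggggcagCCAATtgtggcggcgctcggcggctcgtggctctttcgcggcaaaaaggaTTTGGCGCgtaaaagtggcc
MCM6 held the E2F letters at 2 places, each time with the octamers of both strands overlapping, and 2 CCAAT elements. In TIPIN the octamers of both strands overlap in 1 place and no CCAAT is marked. The remaining 8 members with an octamer are MCM2, MCM3, POLA1, POLA2, POLE2, CDC6, GINS1 and XRCC6. Members with and without the octamer had close medians. The 13 members that held it had median log2 ratios of quisinostat over DMSO of -0.26, -0.18 and -0.59 in the RT4, RT112 and SW780 lines. The 34 matched members without it that had ratios had -0.25, -0.23 and -0.56.

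In DMSO the members were well above the median locus. Their median FPKM was 18.4 in RT4 cells, 18.4 in RT112 cells and 17.8 in SW780 cells, and the median over all loci lay between 6.59 and 6.93. XRCC6, a subunit of the Ku heterodimer that binds broken ends, was the highest at 208 ± 43.0 FPKM (SD over the 3 lines). It was followed by PCNA at 170 ± 33.7 and XRCC5, the other Ku subunit, at 146 ± 32.9, and neighbours among these 3 did not differ beyond their spread. BRCA2 was the lowest at 3.39 ± 1.24 FPKM, next to CDT1 at 3.45 ± 1.89. With quisinostat the members' median FPKM was 11.5 in RT4 cells, 15.4 in RT112 cells and 11.5 in SW780 cells. Their share of all summed FPKM was 0.653% and 0.488% in RT4 cells with DMSO and quisinostat, 0.736% and 0.646% in RT112 cells, and 0.821% and 0.575% in SW780 cells.

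The members were more often lower with quisinostat than loci in general, and the margin was largest in SW780 cells. The members were chosen with earlier results of these data known, so the shares are a description. A gene was counted as lower where its log2 ratio was below -0.3, the limit the study used, and as higher where it was above 0.3. In SW780 cells 38 of 54 members (70.4%) were lower and 1 was higher, against 28.2% and 32.8% of all loci. In RT4 cells 23 (42.6%) were lower and 6 higher, against 33.5% and 40.3% of all loci. In RT112 cells 19 (35.2%) were lower and 10 higher, against 25.2% and 36.0%. As deposited, the lower share in these lines was nearer to the background. For the RT4, RT112 and SW780 lines in this order, the members had medians of -0.22, -0.21 and -0.56 on the log2 scale, while all loci had 0.08, 0.06 and 0.04.

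**Figure D1:**
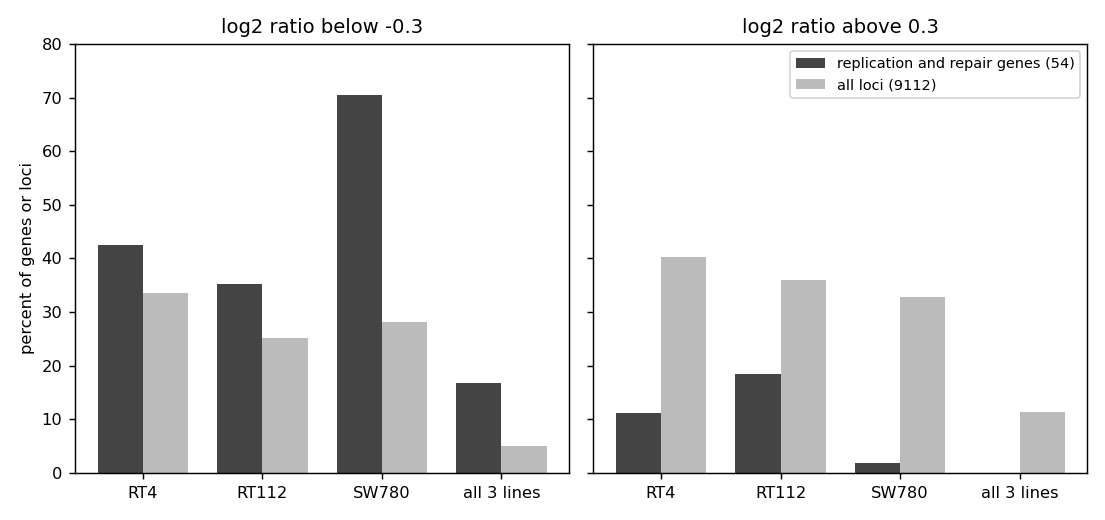
Share of genes or loci (percent, vertical axis) with a log2 ratio of quisinostat over DMSO below -0.3 (left) and above 0.3 (right) in each cell line and in all 3 lines, for the 54 members (dark bars) and all 9112 loci (light bars). The dark bar is the taller in each lower group, with 70.4% against 28.2% in SW780 cells, and the shorter in each higher group.

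In all 3 lines, 9 members were lower and 0 were higher. These are 16.7% and 0% of the 54, against 4.99% and 11.4% of all loci. The 9 are MCM3, ORC1, CDC45, RRM1, BRCA2, RAD54L, FANCD2, MSH6 and XRCC6. The ratio had a negative sign in all 3 lines in 29 members (53.7%), against 16.6% of all loci. Across lines, limma was run on log2(FPKM + 1) with the cell line as a block, and no member passed an adjusted p-value of 0.05. Their lowest adjusted p-value was 0.306, and 0.00% of the 9430 loci tested passed. With unadjusted p-values below 0.05, 10 of 55 members were lower and 0 higher in limma, where 4.16% of all loci were lower and 9.68% higher. Those 10 are MCM3, MCM4, MCM7, ORC1, CDC45, GINS2, RRM1, TYMS, BRCA2 and FANCD2. The 10 depend on which lines are used. Without SW780 cells limma gave 0 members as lower (0.785% of all loci), without RT4 cells 3 (2.55% of all loci), and without RT112 cells 18 (9.43% of all loci), so the background moved with the count.

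**Figure D2:**
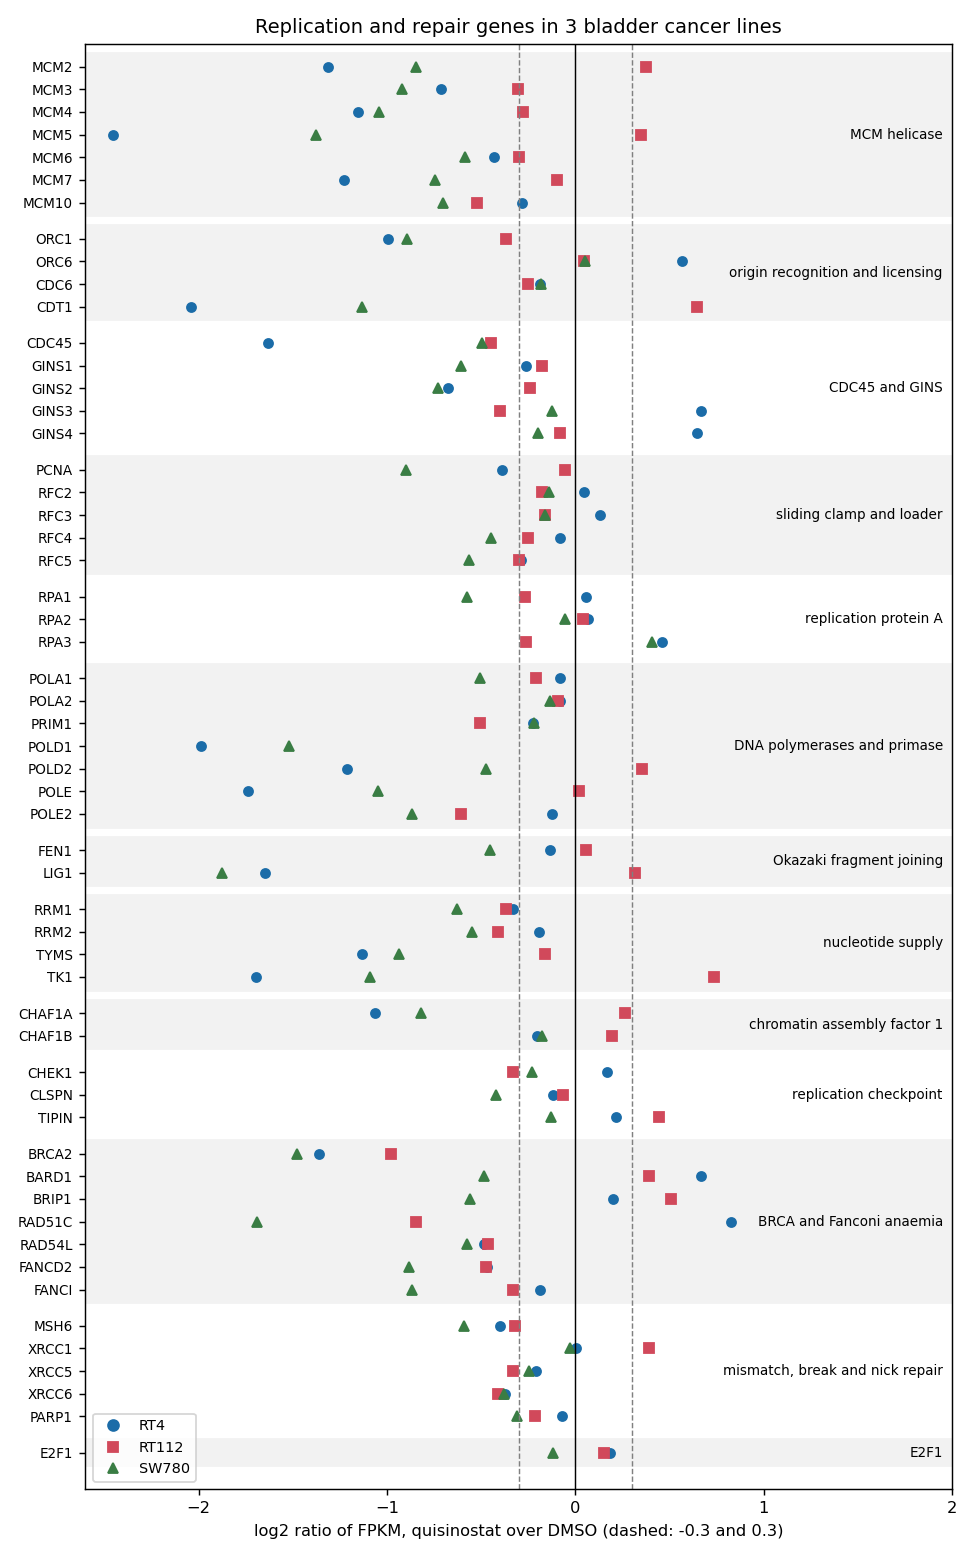
Log2 ratio of FPKM, quisinostat over DMSO, of the 55 members (horizontal axis), grouped by role from top to bottom, with 1 point per cell line and dashed lines at -0.3 and 0.3. POLD1 has no RT112 point because it was listed at 0 in DMSO. SW780 and RT4 points lie far to the left in MCM5, LIG1, POLE and TK1, where RT112 points lie near or right of 0, and the 3 points of XRCC6 and RAD54L nearly coincide.

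The log2 ratios ran with transcript GC content, down in RT4 and SW780 cells and up in RT112 cells. Over all 8407 loci with a GC value, Spearman's correlation of the 2 across genes was -0.49 for RT4, 0.44 for RT112 and -0.22 for SW780. Over the 54 members it was -0.44, 0.42 and -0.11. These are descriptions across genes of the same libraries. Members with a GC content above their median of 48.0% had median log2 ratios of -0.71, -0.09 and -0.58 in RT4, RT112 and SW780 cells. The other 27 had -0.19, -0.30 and -0.55. After a smooth curve of ratio on GC content was subtracted in each line, the members' medians were -0.50, -0.17 and -0.65. With this correction 37 members were lower in RT4 cells, 16 in RT112 cells and 41 in SW780 cells (68.5%, 29.6% and 75.9%), against 33.4%, 24.7% and 28.6% of the loci with a GC value. In all 3 lines 13 were lower (24.1%), against 7.73% of these loci. In limma on corrected values, 26 members were lower at an unadjusted p-value under 0.05, against 10.9% of the loci tested, and 0 passed the adjusted threshold.

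**Figure D3:**
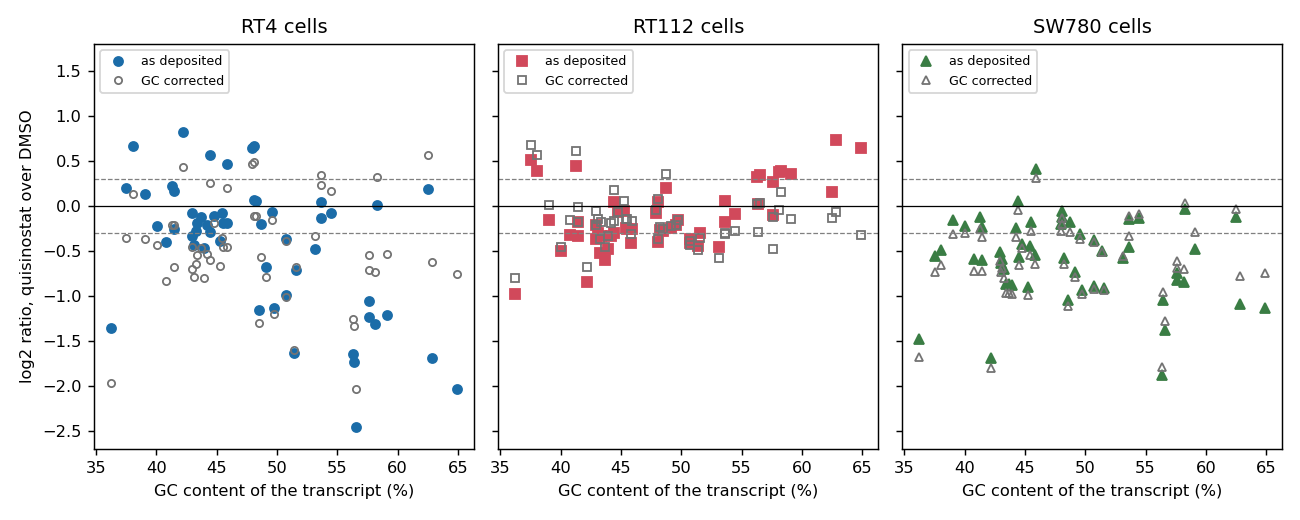
Log2 ratio of quisinostat over DMSO of the 54 members (vertical axis) against the GC content of their transcript in percent (horizontal axis), 1 panel per cell line, with filled points for ratios as deposited and open points after the correction for GC content. Filled points slope down in RT4 cells and up in RT112 cells, with Spearman's correlations of -0.44 and 0.42, and lie mostly below -0.3 in SW780 cells, at 38 of 54 members.

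The MCM genes were mostly lower in RT4 and SW780 cells and mixed in RT112 cells. MCM2-7 form the helicase, and MCM10 is counted with them. The 7 genes had medians of -1.15, -0.28 and -0.85 on the log2 scale in the RT4, RT112 and SW780 lines, with 6, 2 and 7 of them lower. These counts are 85.7%, 28.6% and 100%, against 33.5%, 25.2% and 28.2% of all loci. MCM10 was the gene not lower in RT4 cells, and MCM3 and MCM10 were the 2 lower in RT112 cells. MCM3, a ring subunit, had 103 FPKM in RT4 cells with DMSO and 62.8 with quisinostat, 101 and 81.6 in RT112 cells, and 57.5 and 30.4 in SW780 cells. Each quisinostat library was below its own DMSO library, although the groups overlap because DMSO-treated SW780 cells were below quisinostat-treated RT4 and RT112 cells. Its log2 ratios were -0.71, -0.302 and -0.92, of which the RT112 ratio was just inside the limit. The limma estimate was -0.63 with a standard error of 0.19 and an adjusted p-value of 0.317. MCM4 had 81.1 and 36.5 FPKM in RT4, 108 and 89.1 in RT112, and 96.0 and 46.6 in SW780 cells. Its log2 ratios were -1.15, -0.28 and -1.04, and its limma estimate was -0.81 with a standard error of 0.23 and the lowest adjusted p-value of any member, 0.306. MCM7 had 87.1 and 37.1, 83.4 and 77.9, and 65.6 and 39.1 FPKM, a small difference in RT112 cells (log2 ratio -0.10) beside -1.23 in RT4 cells. Its limma estimate was -0.68 with a standard error of 0.25 (adjusted p-value 0.343).

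MCM2 and MCM5, which sit next to each other in the ring, were higher with quisinostat in RT112 cells. MCM5 had 19.1 FPKM with DMSO and 3.50 with quisinostat in RT4 cells and 12.6 and 4.85 in SW780 cells, but 18.4 and 23.5 in RT112 cells. This gives ratios of -2.45 in RT4 cells, -1.38 in SW780 cells and 0.35 in RT112 cells, and limma gave -1.02 with a standard error of 0.47 (adjusted p-value 0.400). MCM2 had 44.3 and 17.9 FPKM in RT4, 32.3 and 18.0 in SW780, and 44.1 and 57.3 in RT112 cells, or log2 ratios of -1.31, -0.85 and 0.38. MCM6 (-0.43, -0.30 and -0.59) was just outside the limit in RT112 cells, where its unrounded ratio was -0.2999. MCM10, which helps start the fork, had ratios of -0.28, -0.52 and -0.70.

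Of the 4 origin recognition and licensing genes, ORC1 was lower in all 3 lines. ORC1 is the cell cycle regulated subunit of the origin recognition complex, and its FPKM was 14.8 and 7.44 in RT4, 11.3 and 8.78 in RT112, and 14.2 and 7.63 in SW780 cells with DMSO and quisinostat. All 3 quisinostat values were below all 3 DMSO values. Its log2 ratios were -0.99, -0.37 and -0.90, and the limma estimate was -0.69 with a standard error of 0.22 (adjusted p-value 0.317). CDC6, the loading ATPase, differed little and alike, with 25.9 and 22.8, 26.5 and 22.3, and 28.9 and 25.5 FPKM in RT4, RT112 and SW780 cells. Its groups did not overlap either, at log2 ratios between -0.25 and -0.18. CDT1, its partner in loading, had 5.20 and 1.27 FPKM in RT4, 3.71 and 5.79 in RT112, and 1.45 and 0.660 in SW780 cells, so that its log2 ratio of 0.64 in RT112 cells stood against -2.04 and -1.13 in the other lines. ORC6 had the highest mean log2 ratio of all members, 0.22 ± 0.30 (SD over the 3 lines), with 8.57 and 12.7 FPKM in RT4 cells and nearly equal values in RT112 and SW780 cells.

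CDC45 was lower in all 3 lines, and the 4 GINS subunits were mixed. CDC45 had 28.7 and 9.29 FPKM in RT4, 28.9 and 21.2 in RT112, and 18.6 and 13.2 in SW780 cells. Its log2 ratios were -1.63, -0.45 and -0.50, and the limma estimate was -0.81 with a standard error of 0.28 (adjusted p-value 0.326). GINS2 had 15.3 and 9.61, 22.3 and 18.8, and 17.8 and 10.7 FPKM, with ratios of -0.67, -0.24 and -0.73 (limma estimate -0.51, standard error 0.20, adjusted p-value 0.353). GINS1 had ratios of -0.26, -0.18 and -0.60. GINS3 and GINS4 were higher in RT4 cells, at 0.67 and 0.64, and had ratios between -0.40 and -0.08 in the other lines.

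Of the 5 clamp and loader genes, 1 was lower in RT4 cells, 1 in RT112 cells and 3 in SW780 cells (20%, 20% and 60%). Of the 3 genes of replication protein A, 0, 0 and 1 were lower (0%, 0% and 33.3%). Among all loci the shares were 33.5%, 25.2% and 28.2%. PCNA, the ring that tethers polymerases, had 138 and 105 FPKM in RT4, 168 and 162 in RT112, and 205 and 110.1 in SW780 cells, with log2 ratios of -0.39, -0.05 and -0.90. RFC5, a clamp loader subunit, had 18.4 and 15.1, 18.7 and 15.2, and 16.9 and 11.5 FPKM, and its groups did not overlap. Its ratios of -0.29, -0.30 and -0.56 put it just outside the limit in RT4 cells and just inside it in RT112 cells. RFC2, RFC3 and RFC4 had ratios between -0.45 and 0.13. RPA1, RPA2 and RPA3 coat single-stranded DNA. Of these RPA2 had ratios between -0.05 and 0.07, RPA1 was at -0.57 in SW780 cells, and RPA3 was at 0.46, -0.26 and 0.41.

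Of the 6 polymerase and primase genes with ratios, 2 were lower in RT4 cells, 2 in RT112 cells and 4 in SW780 cells. These are 33.3%, 33.3% and 66.7%, against 33.5%, 25.2% and 28.2% of all loci. POLE, the leading strand polymerase, had 18.5 and 5.57 FPKM in RT4, 11.5 and 11.6 in RT112, and 10.2 and 4.93 in SW780 cells. The log2 ratios were -1.74, 0.02 and -1.05, and limma gave -0.82 with a standard error of 0.34 (adjusted p-value 0.362). POLD2, an accessory subunit of polymerase delta, had 57.7 and 24.9, 41.7 and 53.3, and 39.0 and 28.1 FPKM, with ratios of -1.21, 0.35 and -0.47. POLD1, the catalytic subunit of polymerase delta, had 7.10 and 1.79 FPKM in RT4 and 4.65 and 1.62 in SW780 cells. In RT112 cells it was listed at 0 with DMSO and at 5.53 with quisinostat, so no fold was computed. POLE2, the second subunit of polymerase epsilon, had 8.87 and 8.13, 11.4 and 7.47, and 9.83 and 5.39 FPKM, and its groups did not overlap. The groups of PRIM1 did not overlap either. PRIM1, the primase, had 55.8 and 47.7, 70.2 and 49.4, and 57.7 and 49.6 FPKM, a value that PRIM1 shares with NACA in 1 assembled locus. POLA1 and POLA2, subunits of the polymerase that extends primers, had ratios between -0.51 and -0.08. LIG1, which seals Okazaki fragments, had 19.4 and 6.19 FPKM in RT4, 7.82 and 9.75 in RT112, and 13.2 and 3.60 in SW780 cells. The log2 ratios were -1.65, 0.32 and -1.88. The mean ratio of -1.07 ± 1.21 (SD over the 3 lines) was the third lowest, and limma gave -0.95 with a standard error of 0.42 (adjusted p-value 0.380). FEN1, the flap nuclease, had -0.13, 0.06 and -0.46 and shares its locus with FADS2.

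The 4 genes of nucleotide supply were all lower in SW780 cells, where 28.2% of all loci were lower. RRM1 and RRM2 form ribonucleotide reductase, which makes deoxyribonucleotides. RRM1 had 35.6 and 28.3 FPKM in RT4, 48.9 and 37.9 in RT112, and 57.2 and 37.0 in SW780 cells. It was lower in all 3 lines at ratios of -0.33, -0.37 and -0.63 (limma estimate -0.43, standard error 0.17, adjusted p-value 0.360). RRM2 had ratios of -0.19, -0.41 and -0.55. TYMS, which makes thymidylate, had 49.9 and 22.8, 53.2 and 47.5, and 111 and 58.3 FPKM, with ratios of -1.13, -0.16 and -0.93 (limma estimate -0.73, standard error 0.24, adjusted p-value 0.319). TK1, the salvage kinase for thymidine, had the highest ratio of any member in RT112 cells, with 37.1 and 61.8 FPKM (log2 ratio 0.74). In RT4 and SW780 cells TK1 had the opposite direction, with 66.6 and 20.6, and 53.1 and 24.9 FPKM (log2 ratios -1.69 and -1.09). CHAF1A, the large subunit of chromatin assembly factor 1, had the same signs as TK1, at -1.06, 0.26 and -0.82. CHAF1B, whose locus also carries MORC3, lay between -0.20 and 0.20.

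The BRCA and Fanconi anaemia genes were all lower in SW780 cells, and 3 of 7 were lower in all 3 lines. These are 100% and 42.9%, against 28.2% and 4.99% of all loci. BRCA2, which acts in homologous recombination, had the lowest mean ratio of any member, -1.27 ± 0.26 (SD over the 3 lines). Its FPKM was 2.05 and 0.795 in RT4, 4.49 and 2.28 in RT112, and 3.62 and 1.30 in SW780 cells, low values in all 6 libraries. The limma estimate on the log2(FPKM + 1) scale was -0.84 with a standard error of 0.27 (adjusted p-value 0.319), and this scale understates the change of such a low gene. FANCD2, which is ubiquitinated in the Fanconi pathway, had 11.2 and 8.11, 16.9 and 12.1, and 13.6 and 7.37 FPKM. Its ratios were -0.47, -0.47 and -0.88 (limma estimate -0.56, standard error 0.20, adjusted p-value 0.338). RAD54L, a motor protein of recombination, had 10.3 and 7.35, 10.5 and 7.62, and 8.69 and 5.84 FPKM. It differed between groups without overlap and by nearly the same ratio in each line, -0.48, -0.46 and -0.58 (limma estimate -0.45, standard error 0.20, adjusted p-value 0.380). FANCI, the partner of FANCD2, had -0.19, -0.33 and -0.87. BARD1, the partner of BRCA1, and BRIP1, a helicase bound by BRCA1, were at 0.67 and 0.20 in RT4, 0.39 and 0.51 in RT112, and -0.49 and -0.56 in SW780 cells. RAD51C, which also acts in recombination, had 2.31 and 4.08 FPKM in RT4, 5.59 and 3.11 in RT112, and 9.75 and 3.02 in SW780 cells.

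Among the genes of mismatch, break and nick repair, MSH6 and XRCC6 were lower in all 3 lines. MSH6, which recognises mismatched bases, had 15.1 and 11.5 FPKM in RT4, 16.2 and 13.0 in RT112, and 19.4 and 12.9 in SW780 cells, and its groups did not overlap. The log2 ratios were -0.40, -0.32 and -0.59, and limma gave -0.41 with a standard error of 0.19 (adjusted p-value 0.392). XRCC6 had 168 and 130 FPKM in RT4, 253 and 190.4 in RT112, and 202 and 156 in SW780 cells. The log2 ratios of -0.37, -0.41 and -0.38 had an SD of 0.022, the smallest of any member. Its groups overlap, since DMSO-treated RT4 cells were below quisinostat-treated RT112 cells, and the limma estimate was -0.38 with a standard error of 0.16 (adjusted p-value 0.362). XRCC5 had ratios of -0.21, -0.33 and -0.25. PARP1, the nick sensor, had -0.07, -0.21 and -0.31, and XRCC1, a scaffold of nick repair whose locus also carries IRGQ, had 0.01, 0.39 and -0.03. Across the whole list, all 3 quisinostat values lay below all 3 DMSO values in 7 members (ORC1, CDC6, RFC5, PRIM1, POLE2, RAD54L and MSH6), and 4.43% of all loci had this order. The PRIM1 value is that of the locus it shares with NACA.

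**Figure D4:**
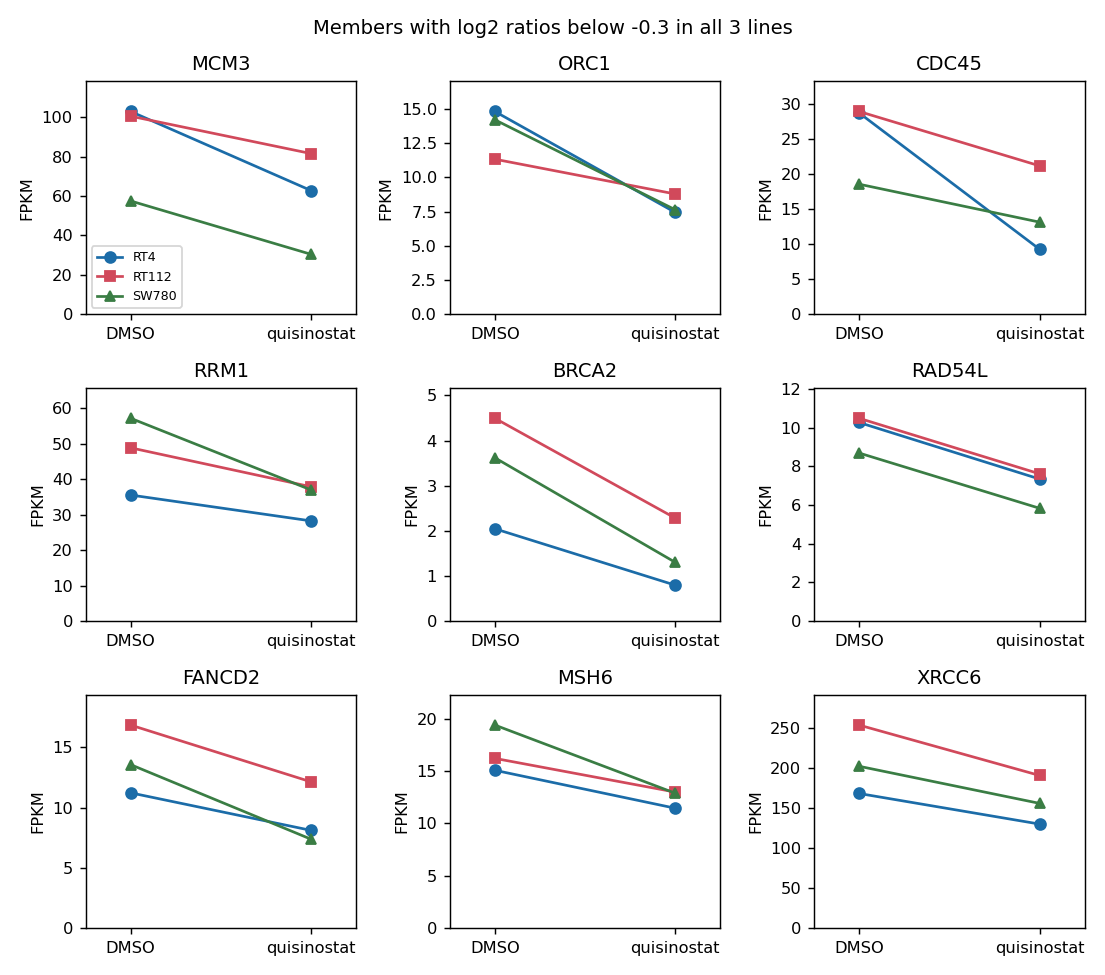
FPKM (vertical axes, each starting at 0) of the 9 members with log2 ratios below -0.3 in all 3 lines, with DMSO on the left and quisinostat on the right of each panel and 1 line per cell line. Every line runs down, from 253 to 190.4 FPKM for XRCC6 in RT112 cells and from 28.7 to 9.29 FPKM for CDC45 in RT4 cells.

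Positions on GRCh38 are those of GENCODE 29 for the 9 members of the plot of FPKM by treatment. MCM3 lies at chr6:52264009-52284881, ORC1 at chr1:52372829-52404459, CDC45 at chr22:19479459-19520612 and RRM1 at chr11:4094707-4138876. BRCA2 lies at chr13:32315474-32400266, RAD54L at chr1:46247688-46278473, FANCD2 at chr3:10026414-10101930, MSH6 at chr2:47695530-47810101 and XRCC6 at chr22:41621119-41664048.

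CHEK1, CLSPN and TIPIN act in the replication checkpoint, and E2F1 is an activator of G1/S genes. CHEK1, which shares its locus with STT3A, had 0.17, -0.33 and -0.23. CLSPN, the adaptor that activates CHEK1 and shares its locus with C1orf216, had -0.12, -0.07 and -0.42. TIPIN, part of the fork protection complex, had 5.71 and 6.64 FPKM in RT4, 2.87 and 3.91 in RT112, and 6.43 and 5.88 in SW780 cells. E2F1 shares its locus with PXMP4, and the locus had 5.20 and 5.90 FPKM in RT4, 7.22 and 8.03 in RT112, and 7.10 and 6.53 in SW780 cells. Its log2 ratios were 0.18, 0.15 and -0.12, and the limma estimate was 0.06 with a standard error of 0.21 (adjusted p-value 0.914). After ORC6, the highest mean log2 ratios were 0.20 ± 0.40 (SD over the 3 lines) for RPA3, 0.19 ± 0.60 for BARD1, 0.18 ± 0.29 for TIPIN and 0.12 ± 0.23 for XRCC1, each smaller than its spread. Their adjusted p-values in limma lay between 0.707 for RPA3 and 0.856 for XRCC1. By Pearson's r of log2(FPKM + 1) over the 6 libraries, the members most like E2F1 were CHAF1B (0.89), RFC4 (0.86) and GINS3 (0.85). These 6 libraries come from 3 lines in pairs and the values are a description.

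In RT4 and SW780 cells 6 members were lower that were higher in RT112 cells: MCM2, MCM5, CDT1, POLD2, LIG1 and TK1. This is 11.1% of the 54, and 7.35% of all loci had the same pattern. The 6 are among 23 members lower in both RT4 and SW780 cells. Over all loci, 1628 were lower in both lines and 670 of those were higher in RT112 cells, a larger part than among the members. POLD1, at 0 FPKM in RT112 cells with DMSO, has no ratio there and was not counted. It had log2 ratios of -1.98 in RT4 and -1.52 in SW780 cells, and 5.53 FPKM in RT112 cells with quisinostat. The POLD1 transcript has a GC content of 65.0%, and those of the 6 counted members have between 56.3% (LIG1) and 64.9% (CDT1). After the correction for GC content their log2 ratios in RT112 cells were -0.05 for MCM2, 0.03 for MCM5, -0.32 for CDT1, -0.15 for POLD2, 0.02 for LIG1 and -0.07 for TK1. After this correction 1 member, BRIP1, was lower in RT4 and SW780 cells and higher in RT112 cells, 1.85% of the 54 against 2.38% of the loci with a GC value. The part of GC content in the pattern beyond these values was not tested.

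The wider pathways were read from further lists. Of 41 other replication genes with rows, 16 were lower in RT4 cells, 16 in RT112 cells and 24 in SW780 cells. These are 39%, 39% and 58.5%, against 33.5%, 25.2% and 28.2% of all loci. In all 3 lines 5 were lower (12.2%, against 4.99% of all loci). They are MCMBP, SUPT16H, SSRP1, DNA2 and TICRR. MCMBP, which binds the MCM subunits, had ratios of -0.43, -0.52 and -0.43. SUPT16H and SSRP1, which together form the histone chaperone FACT, had -0.50, -0.42 and -0.49, and -0.34, -0.41 and -0.39. In limma 4 of the 41 were lower and 1 higher by an unadjusted p-value of 0.05, and 0 passed the adjusted threshold. By that unadjusted threshold 4.16% of all loci were lower and 9.68% higher. Of 52 other repair genes above 0 in all libraries, 3 were lower in all 3 lines, a share of 5.77% that is near the 4.99% of all loci. After the GC correction it was 9 of 52 (17.3%, against 7.73%). The 3 are LIG3, a DNA ligase (-2.31, -0.85 and -1.86), PRKDC, the kinase recruited by Ku (-0.53, -0.48 and -0.74), and NBN, a subunit of the complex that senses broken ends (-0.61, -0.47 and -0.62). By the same unadjusted threshold 4 of 53 were lower and 0 higher in limma, with the same shares of all loci.

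Among 10 E2F and RB family genes, TFDP1, RBL1 and E2F8 were lower and E2F6 was higher in all 3 lines. These are 30% and 10%, against 4.99% and 11.4% of all loci, so the higher share is near the background. TFDP1, a partner with which many E2F factors bind DNA, had 50.0 and 26.1 FPKM in RT4, 72.8 and 54.2 in RT112, and 69.6 and 39.7 in SW780 cells. RBL1, the RB relative p107, had ratios of -0.35, -0.36 and -0.63, and E2F8, a repressive E2F, had -0.59, -0.62 and -0.56. E2F6, a repressor that lacks the RB binding part, had 1.46 and 3.79 FPKM in RT4, 0.265 and 1.68 in RT112, and 1.49 and 6.31 in SW780 cells (limma adjusted p-value 0.278). Of 39 mitosis genes, 8 were lower in RT4 cells, 24 in RT112 cells and 32 in SW780 cells, with medians of -0.01, -0.39 and -0.58. These are 20.5%, 61.5% and 82.1% of the list, against 33.5%, 25.2% and 28.2% of all loci. CCNB2 and MKI67 were lower (5.13% of the list, near the background) and CENPA, whose locus also carries SLC35F6, was higher in all 3 lines. After the GC correction 8 mitosis genes were lower in all 3 lines (20.5%, against 7.73% of the loci with a GC value).

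The libraries were checked with other genes. Of 5 genes known to respond to HDAC inhibitors, 1 was higher in all 3 lines and 0 were lower in all 3. It is GSN (0.93, 2.79 and 1.50). In RT112 cells all 5 were higher, while in RT4 cells 2 were higher and 1 lower and in SW780 cells 2 were higher and 2 lower. CDKN1A had ratios of 0.12, 1.36 and 0.52, H1F0 had 1.08, 0.45 and -0.04, CLU had 0.09, 2.62 and -0.32, and TUBB3 had -1.90, 0.54 and -0.61. All 15 urothelial and epithelial markers have rows, and KRT8, KRT18 and KRT19 were present in all 6 libraries, while UPK3A was at 0 in both RT112 libraries. Of the 14 with ratios, 8 (57.1%) were lower in RT4 and SW780 and higher in RT112 cells, against 7.35% of all loci. After the GC correction 35.7% of the 14 had this pattern, against 2.38% of the loci with a GC value. Of 11 markers of other cell types only COL1A1 has a row, with at most 1.45 FPKM, and it was higher with quisinostat in all 3 lines. The part of these markers in the members' values was not tested.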

How the data were processed

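The authors sequenced polyadenylated RNA (TruSeq stranded mRNA libraries, NovaSeq) and took gene values from Ballgown. The submitters' processing notes name CASAVA 1.8.2, Trimmomatic 0.36, HISAT2 2.2.1, SAMtools 1.15.1, StringTie 2.2.1 and GRCh38. The annotation release and the rule for the listed rows are not given in the sources used here. The deposited values are FPKM, not counts, so depth is unknown and no counting interval was computed.

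Samples were grouped by title, since the cell line is misspelt in 1 label of the SW780 quisinostat library. Log2 ratios used loci above 0 in all 6 libraries, with no pseudocount. In R 4.3.3, limma 3.58.1 was fitted to log2(FPKM + 1), keeping loci whose mean FPKM reached 1, with a trend and Benjamini-Hochberg adjusted p-values. Cell line was a block, since both libraries of a pair come from the same line. The step was run on simulated data with planted changes that were alike in all lines and larger than any member's limma estimate. Its power for changes of the members' size was not tested. GC content came from GENCODE 29 transcripts for 92.3% of the loci, and a lowess curve (span 0.3) was subtracted. Genes that share an assembled locus have 1 value. Alternatives were pseudocounts, filters, scalings, thresholds, GC correction and leaving out a line.

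Any member could be named, with fuller statistics for E2F1, members beyond 0.3 the same way in all lines, the 5 lowest and 5 highest mean ratios, members opposite in RT112, and those under an unadjusted limma p-value of 0.05. Of other lists, up to 4 genes beyond 0.3 in all lines were named, and TICRR is named outside this rule, its values having been seen first. The members and lists were chosen with earlier results of these data known. Python 3.11.15 with pandas 2.3.3, statsmodels 0.14.6 and matplotlib 3.10.9 was used.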

Additional observations from a re-analysis of the deposited data

Results flagged for a closer look

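In RT112 cells 6 members were above 0.3 that were below -0.3 in both other lines. Their log2 ratios in RT112 cells were 0.38 for MCM2, 0.35 for MCM5, 0.64 for CDT1, 0.35 for POLD2, 0.32 for LIG1 and 0.74 for TK1. They are 11.1% of the members with ratios, and 7.35% of all loci had the pattern. Among those lower in both other lines, the rise in RT112 cells was less common in members (6 of 23) than over all loci (670 of 1628). POLD1 was not counted, since it has no ratio in RT112 cells. After the correction for GC content 0 of the 6 remained above 0.3 in RT112 cells, where the corrected ratios lay between -0.32 (CDT1) and 0.03 (MCM5). The difference between lines was not tested, because each line and treatment has 1 library, and dose also differs between the lines.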

How the results depend on the processing

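Among the settings run, the count of members lower in all 3 lines (9) depended most on the limit and on RT112 cells. It was 1 at a limit of 0.5 and 0 at a limit of 1. Requiring only 2 of the lines gave between 9 and 23, with 15 without RT4 and 23 without RT112 cells. The 23 are 42.6% of the 54, against 17.9% of all loci. At a limit of 1, the RT4, RT112 and SW780 lines had 13, 0 and 8 lower members, and at 0.5 RT112 cells had 5. Shares of all loci for the other pairs of lines and at limits of 0.5 and 1 were not computed, so those counts have no background. The GC correction gave 37 lower members and a median of -0.50 in RT4 cells. It gave 13 in all 3 lines, of which 7 were among the 9, without RRM1 and MSH6. A pseudocount of 1 lost MCM3 and MSH6, and a filter at a mean FPKM of 5 lost BRCA2. Equal sums lost RRM1 and added MCM6. Quantile normalization lost MCM3 and XRCC6 and added MCM6, MCM10 and RFC5. Centring on the median of all loci kept the 9 and added MCM4, MCM6, MCM10 and RFC5, which made 13. Leaving out members that share a locus with another gene kept the same 9. Limma gave 2 lower members with no replicate block (10 with it), 26 with GC correction and the block, and between 0 (without SW780 cells) and 18 (without RT112 cells) when a line was left out. Of all loci 1.12% were lower with no replicate block and 4.16% with it. In every limma setting run, 0 members passed an adjusted p-value of 0.05. Other repair genes lower in all lines numbered 9 after GC correction, an alternative chosen after seeing the data, and mitosis genes 8. Mitosis genes numbered 4 after centring, where 6.37% of all loci were lower in all 3 lines. An E2F motif of 6 letters was in 26 members (54.2%, against 20.8% of all genes). The cause of these changes was not tested. The GC correction turned the sign of 8 members' ratios in RT4 cells, 10 in RT112 cells and 2 in SW780 cells. Of these, 4 had been above 0.3 in RT112 cells, and their corrected ratios there were -0.046 (MCM2), -0.32 (CDT1), -0.15 (POLD2) and -0.066 (TK1). The other settings turned the sign of 0 ratios that were beyond 0.3. Depth is unknown, so low members such as BRCA2 and CDT1 are the least certain.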
